A study of Mus musculus with 12 samples.

Results

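The Janus kinases (JAKs) and the signal transducers and activators of transcription (STATs) were followed in mouse aorta through 9 genes, namely Jak1, Jak2, Jak3, Tyk2, Stat2, Stat3, Stat4, Stat5a and Stat6. They were taken as every probe that carries one of these gene names in the scanner output of the arrays, which gave 13 of the 55681 probes other than controls. All 9 genes were among the 22769 genes tested. RNA of the aorta from male mice of a mixed 129S5/SvEvBrd, C57BL6 and SJL background, aged 11 to 14 weeks per the methods, was hybridised to 12 one-colour microarrays, with 3 arrays in each of 4 groups. The first group was WT mice without any infusion, which carried both floxed Socs3 alleles (Socs3 fl/fl) and no Cre transgene. The second was WT mice of the same genotype at day 3 of BAPN + AngII challenge, which received 150 mg/kg/day of BAPN, a blocker of lysyl oxidase and so of collagen and elastin crosslinks, with 1000 ng/kg/min of the pressor hormone AngII from an osmotic minipump. The remaining groups were Socs3 fl/fl littermates that also carried SM22-Cre (smSocs3-KO), without infusion and at day 3 of the same challenge. SM22-Cre is driven by a smooth muscle promoter, so that the deletion is directed at smooth muscle cells, whereas the RNA came from whole aortic tissue. Fewer cells of a type and less RNA per cell cannot be told apart in such samples. Nothing in the labels says whether the arrays of a group came from separate animals, and the p-values measure the spread between these arrays.

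Cytokine receptors without a kinase of their own signal through JAKs, which are bound to the receptor tail, phosphorylate one another and the receptor when a ligand binds, and then phosphorylate STATs. Phosphorylated STATs pair up, enter the nucleus and bind DNA, and their transcription targets include Socs3, whose product binds the receptor and the kinase and closes the loop. The activity of the pathway is set by phosphorylation, which arrays do not measure. They measure the transcripts of the kinases, of the transcription factors and of their targets.

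Socs3, the targeted gene, was checked against the labels first. Its log2 signal, which here and below is the processed signal of a probe relative to the 75th percentile of its array, was 0.15 to 0.58 in WT before challenge and 0.47 to 2.13 in WT at day 3. In the smSocs3-KO groups it was 0.10 to 1.29 before challenge and 2.08 to 3.93 at day 3. Arrays with the smSocs3-KO label did not have less Socs3 signal, and these groups are called by their label. Slide 1 carried the 6 WT arrays and replicate 1 of the smSocs3-KO label before challenge, slide 2 carried the remaining 5 arrays, and label and slide are therefore largely confounded. Replicate 4 of WT at day 3 stood apart from the other two arrays of its group, with a Socs3 signal of 0.47 against 2.01 and 2.13 and an Il6 signal of -3.58 against 2.45 and 3.34. The share of spots well above background lay between 55.4% and 61.2% over the arrays. All 13 probes of the JAK and STAT genes were well above background on all 12 arrays.

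The probes on which the values rest are shown for Stat2, Stat3, Jak3 and Stat6, which either gave the clearest difference or were measured by more than 1 probe. All are 60 bases long, positions are those of the array files on mm9, and sequences run 5′ to 3′ as deposited. Those numbered 2 for Jak3 and 3 for Stat6, counted from the brightest, are given whole and the others by their first 30 bases. Nothing is in capitals, because no base is singled out.
Stat2 probe, chr10:127729834-127729893, plus strand: ctgaatagttagaaagaactgttgtcctga
Stat3 brightest probe, chr11:100749598-100749657, minus strand: cactctgtgagctgataccccaggctggga
Jak3 brightest probe, chr8:74214085-74214144, plus strand: tggctagagcagagacatctcctgcacgcg
Jak3 probe 2, chr8:74210801-74210860, plus strand: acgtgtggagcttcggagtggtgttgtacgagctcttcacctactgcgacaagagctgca
Stat6 brightest probe, chr10:127097689-127097748, plus strand: tctgaaaggctgagacattgtataagacag
Stat6 probe 2, chr10:127095694-127095753, plus strand: acagtccatccactcatttcagagcctaga
Stat6 probe 3, chr10:127083983-127084042, plus strand: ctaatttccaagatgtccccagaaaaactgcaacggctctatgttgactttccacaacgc

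The other single probes lay at chr4:100825094-100825153 on the minus strand for Jak1, chr19:29387487-29387546 on the plus strand for Jak2, chr9:20909321-20909380 on the minus strand for Tyk2, chr1:52163802-52163861 on the plus strand for Stat4 and chr11:100746373-100746432 on the plus strand for Stat5a. Several STAT genes are neighbours. The Stat5a probe lay 3165 bases from the brightest Stat3 probe, on the opposite strand, and 104268 bases from that of Stat5b. The brightest Stat6 probe lay 632085 bases from that of Stat2. Exons and untranslated regions were not assigned, since no annotation of mm9 was used here.

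The 250 bases upstream of the start of each gene and the 50 bases after it, from RefSeq on GRCm38.p6, were searched on both strands for letters that STATs are known to bind. All 9 genes matched a RefSeq entry, and Stat4 and Stat5a each had an alternative start. TTCNNNGAA, the element bound by STAT dimers, stood in no promoter of the 9 genes and in 8.3% of 32851 promoters. A pair of GAAA copies in the same direction with 2 bases between them, the core of the element bound by Stat2 together with Irf9, stood in 3.44% of all promoters, in that of Stat2 on the minus strand and in the second promoter of Stat4 on the plus strand. These upstream stretches are shown because they are the ones with a match, with the matched letters in capitals. A match is a description of the sequence and shows no binding.
Stat2 upstream, chr10:128270248-128270497, plus strand: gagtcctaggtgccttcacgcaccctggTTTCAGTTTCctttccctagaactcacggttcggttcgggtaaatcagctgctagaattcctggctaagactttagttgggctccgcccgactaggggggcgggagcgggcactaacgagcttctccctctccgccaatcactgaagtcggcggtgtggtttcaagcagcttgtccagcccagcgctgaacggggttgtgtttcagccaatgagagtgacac
Stat4 second upstream, chr1:52007990-52008239, plus strand: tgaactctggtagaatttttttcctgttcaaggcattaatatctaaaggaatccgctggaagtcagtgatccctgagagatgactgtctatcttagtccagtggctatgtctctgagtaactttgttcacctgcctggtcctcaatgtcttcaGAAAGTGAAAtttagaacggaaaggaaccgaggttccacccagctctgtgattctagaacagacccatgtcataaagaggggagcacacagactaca

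Across the 4 groups, the arrays labelled smSocs3-KO at day 3 had the highest mean signal for all 9 genes, but the differences in the 4 pairwise comparisons made here were at most 1.20 on the log2 scale, with the brightest probe for each gene, and few passed the adjusted threshold. Genes were called at a Benjamini-Hochberg adjusted p under 0.05 in limma, adjusted over all genes tested. In the challenge response of WT, 0 of the 9 genes were called, against 4.69% of all genes. In the challenge response under the smSocs3-KO label, 1 of the 9 was called, against 2.41% of all genes, and this was Stat2. Between the labels, 0 of the 9 were called before challenge, against 0.0307% of all genes, and 0 of the 9 at day 3, against 1.08% of all genes. In the interaction, which is the difference between the challenge responses of the labels, 0 of the 9 and 0 of all genes were called. The mean of both challenge responses called 3 of the 9, Stat2, Stat4 and Jak1, all higher at day 3, against 22.9% of all genes.

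**Figure D1:**
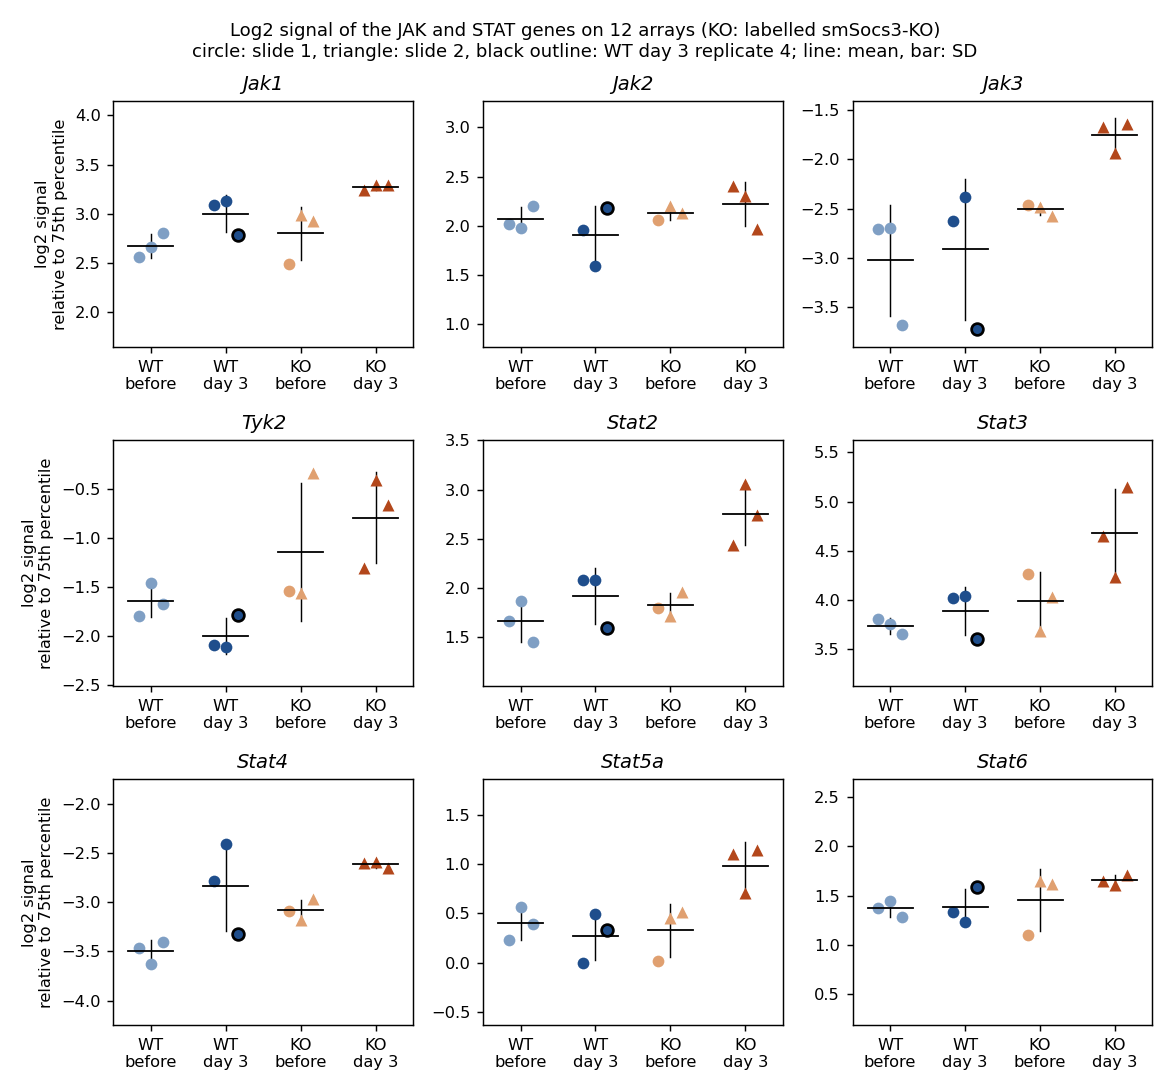
Log2 signal relative to the 75th percentile of the array (vertical axes) of the 9 genes in the 4 groups of 3 arrays. Points are arrays, circles on slide 1 and triangles on slide 2, horizontal lines are means and vertical lines are SDs. The mean of smSocs3-KO at day 3 is the highest in all panels, and the outlined replicate 4 of WT at day 3 is the lowest of its group for Jak1, Jak3, Stat2, Stat3 and Stat4.

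At an unadjusted p under 0.05, 5 of the 9 genes were higher in the challenge response under the smSocs3-KO label (11.4% of all genes), 1 in that of WT (15.1%), 5 in the difference between the labels at day 3 (7.21%), 0 in that before challenge (1.86%), 2 in the interaction (2.5%) and 4 in the mean challenge response (19.3%). The signals of all 3 arrays labelled smSocs3-KO at day 3 lay above those of all 3 WT arrays at day 3 for 7 of the 9 genes, a separation that 7.22% of all genes had. For the same label before and after challenge, 5 of the 9 were separated in this way (12.6% of all genes), in WT 1 of the 9 (20% of all genes) and between the labels before challenge 2 of the 9 (6.5% of all genes). The median difference at day 3 was 0.71 for the 9 genes and -0.11 for all genes. The median challenge response was 0.47 for the 9 genes and -0.11 for all genes under the smSocs3-KO label, and 0.11 and -0.04 in WT.

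**Figure D2:**
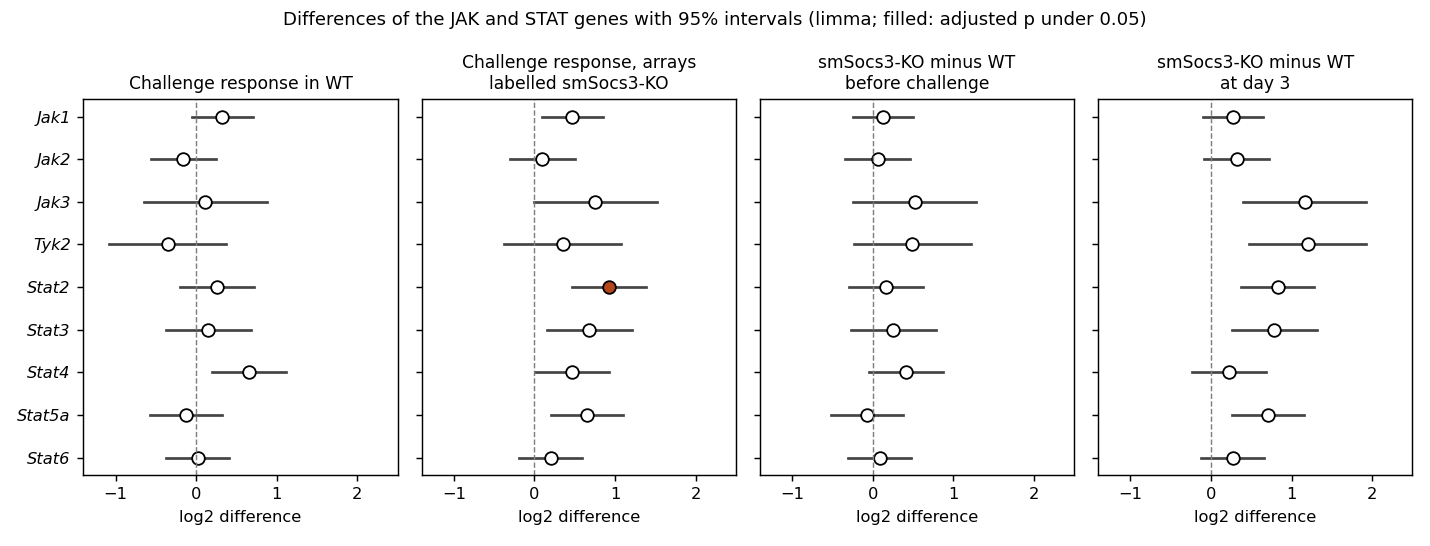
Log2 differences (horizontal axes) of the 9 genes in the challenge response of each label and between the labels before challenge and at day 3, with 95% intervals from limma, fitted over 12 arrays. Filled points passed the adjusted threshold, which holds for Stat2 at 0.92 in the challenge response under the smSocs3-KO label, and the 9 points of the last panel lie between 0.22 and 1.20.

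Among the kinases, Jak1 serves the widest range of receptors, among them those of the interleukin-6 family and of the interferons. Its log2 signals were 2.56, 2.66 and 2.80 in WT before challenge, 3.09, 3.13 and 2.78 in WT at day 3, 2.49, 2.98 and 2.92 under the smSocs3-KO label before challenge and 3.24, 3.29 and 3.29 at day 3. The 3 arrays labelled smSocs3-KO at day 3 were close to each other and above all 9 other arrays. The mean challenge response was 0.40 (SE 0.12, adjusted p = 0.0380 in limma), with 0.33 in WT and 0.47 under the smSocs3-KO label, neither of which passed alone. The call of the mean held in 11 of 26 alternative settings, and not with the slide as a fixed block.

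Jak2 serves the receptors of growth hormone, erythropoietin and interferon gamma. The 12 log2 signals were 2.02, 1.98 and 2.20 in WT before challenge, 1.95, 1.59 and 2.18 in WT at day 3, 2.05, 2.20 and 2.13 under the smSocs3-KO label before challenge and 2.40, 2.30 and 1.97 at day 3. The 4 groups overlapped, and the group means spanned 0.32. The challenge response was -0.16 in WT (95% interval -0.56 to 0.24), or 0.05 when scaled to the array median, and 0.10 under the smSocs3-KO label (-0.31 to 0.50).

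Jak3 is bound to the common gamma chain of lymphocyte cytokine receptors and is known mainly from blood cells. Its brightest probe had log2 signals of -2.70, -2.69 and -3.68 in WT before challenge, -2.62, -2.38 and -3.73 in WT at day 3, -2.46, -2.49 and -2.57 under the smSocs3-KO label before challenge and -1.67, -1.94 and -1.64 at day 3. The arrays labelled smSocs3-KO at day 3 were above all others, and in each WT group 1 array was about 1 log2 unit below the rest. At day 3 the label difference was 1.16 (SE 0.35, adjusted p = 0.145), and without replicate 4 of WT at day 3 it was 0.75.

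Tyk2 is the partner of Jak1 at the type I interferon receptor and of Jak2 at the receptors of interleukin-12 and interleukin-23. On the arrays its log2 signal was -1.79, -1.46 and -1.67 in WT before challenge, -2.09, -2.11 and -1.78 in WT at day 3, -1.54, -1.56 and -0.34 under the smSocs3-KO label before challenge and -1.31, -0.42 and -0.66 at day 3. The challenge response was -0.35 in WT and 0.35 under the smSocs3-KO label, and neither response nor their difference of 0.71 passed (adjusted p = 0.513, 0.514 and 0.931). Replicate 4 under the smSocs3-KO label before challenge, at -0.34, was as high as the highest array at day 3, and the response under this label was 0.76 without it and 0.15 without replicate 3 before challenge. The label difference at day 3 was 1.20 (SE 0.33, adjusted p = 0.116), the largest of the 9.

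Among the transcription factors, Stat2 acts with Irf9 in the response to type I interferon. Stat2 had log2 signals of 1.67, 1.87 and 1.45 in WT before challenge, 2.08, 2.08 and 1.60 in WT at day 3, 1.80, 1.72 and 1.96 under the smSocs3-KO label before challenge and 2.44, 3.06 and 2.75 at day 3. The arrays labelled smSocs3-KO at day 3 were above all 9 others. Under this label Stat2 rose by 0.92 (SE 0.21, 95% interval 0.47 to 1.38, 1.90-fold, adjusted p = 0.0461), whereas the response in WT was 0.26 (SE 0.21, adjusted p = 0.443). The difference between the responses was 0.66 (unadjusted p = 0.0450, adjusted p = 0.887), and the label difference at day 3 was 0.83 (adjusted p = 0.0894). The size of the response under the smSocs3-KO label stayed between 0.77 and 1.17 over 27 alternative settings, and its call held in 9 of them. When single arrays were left out, the call held only without replicate 4 of WT at day 3 (adjusted p = 0.0184), and the adjusted p rose to as much as 0.133. Over all 27 settings the adjusted p lay between 0.0184 and 0.592.

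Stat3 carries the signal of interleukin-6 and its relatives and is the main factor downstream of the receptors that Socs3 inhibits. On its brightest probe the log2 signals were 3.80, 3.76 and 3.65 in WT before challenge, 4.02, 4.04 and 3.60 in WT at day 3, 4.27, 3.69 and 4.03 under the smSocs3-KO label before challenge and 4.65, 4.24 and 5.14 at day 3. The smSocs3-KO groups before challenge and at day 3 overlapped by 1 array, and those of day 3 did not overlap with WT. The challenge response was 0.15 (SE 0.24) in WT and 0.68 (SE 0.24, adjusted p = 0.130) under the smSocs3-KO label, and the label difference at day 3 was 0.79 (SE 0.24, adjusted p = 0.153).

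Stat4 is activated by interleukin-12 in T and NK lymphocytes. Stat4 had log2 signals of -3.47, -3.62 and -3.40 in WT before challenge, -2.78, -2.41 and -3.32 in WT at day 3, -3.09, -3.18 and -2.97 under the smSocs3-KO label before challenge and -2.60, -2.59 and -2.66 at day 3. Both day 3 groups were above their own group before challenge without overlap. The mean challenge response was 0.56 (SE 0.15, adjusted p = 0.0230), with 0.66 in WT (adjusted p = 0.0820) and 0.46 under the smSocs3-KO label (adjusted p = 0.200). The call of the mean held in 21 of 26 alternative settings, and with normexp background correction the value was 0.14 (adjusted p = 0.388). Without replicate 4 of WT at day 3, the WT response of Stat4 was 0.90 (adjusted p = 0.0072 in limma) and the label difference at day 3 turned from 0.22 to -0.02.

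Stat5a is activated by growth hormone, prolactin and interleukin-2. Its log2 signals were 0.23, 0.56 and 0.40 in WT before challenge, -0.0028, 0.49 and 0.33 in WT at day 3, 0.02, 0.45 and 0.51 under the smSocs3-KO label before challenge and 1.11, 0.70 and 1.14 at day 3. The first 3 groups overlapped with each other, and the last lay above all of them. The challenge response was -0.12 in WT (0.09 when scaled to the array median) and 0.66 (SE 0.20, adjusted p = 0.0979) under the smSocs3-KO label, and the difference between the responses, 0.78 (unadjusted p = 0.0204, adjusted p = 0.879), was the largest of the 9. Stat5b, the neighbouring paralog, had a response of -0.41 in WT and -0.19 under the smSocs3-KO label, and its label difference at day 3 was 0.11.

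Stat6 carries the signal of interleukin-4 and interleukin-13. On its brightest probe the log2 signals were 1.37, 1.45 and 1.28 in WT before challenge, 1.34, 1.23 and 1.59 in WT at day 3, 1.10, 1.65 and 1.62 under the smSocs3-KO label before challenge and 1.65, 1.61 and 1.71 at day 3. The group means spanned 0.29, less than the largest SD within a group of 0.31. The challenge response was 0.02 in WT (95% interval -0.37 to 0.41) and 0.20 under the smSocs3-KO label (-0.19 to 0.59).

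The probes of 1 gene did not always move together. Of the 4 probes beyond the brightest, 2 passed in the mean challenge response, the second of Jak3 and the third of Stat6, against 22.6% of all probes. In limma, 0 of the 4 passed in the response of WT (3.79% of all probes), in that under the smSocs3-KO label (2.15%), before challenge (0.0341%) or at day 3 between the labels (0.855%). Without the filter on dim probes, the adjusted p in the mean challenge response was 0.0627 for the second Jak3 probe and 0.0588 for the third Stat6 probe. For Jak3, the second probe followed the first over the 12 arrays (Pearson r = 0.92) and gave larger responses, with 1.11 under the smSocs3-KO label (adjusted p = 0.0540 over all 32291 kept probes), a label difference at day 3 of 1.30 (adjusted p = 0.0505) and a mean challenge response of 0.67 (adjusted p = 0.0283).  For Stat3, the second probe (r = 0.75) gave a response of 0.25 under the smSocs3-KO label and a label difference of 0.62 at day 3, neither of which passed.

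For Stat6, the third probe, which lies nearest to the 5′ end of the gene among its probes, had no positive relation with the brightest (r = -0.20). Here the log2 signals were -1.993, -1.996 and -2.234 in WT before challenge, -2.946, -2.980 and -2.241 in WT at day 3, -1.525, -2.114 and -2.071 under the smSocs3-KO label before challenge and -3.116, -2.692 and -2.246 at day 3. All 6 arrays at day 3 were below all 6 before challenge, although replicate 4 of WT and replicate 5 under the smSocs3-KO label were only just below the lowest array before challenge. The signal fell by 0.71 in the mean challenge response (SE 0.19, adjusted p = 0.0265), with -0.65 in WT and -0.78 under the smSocs3-KO label, whereas the brightest probe gave 0.11. When the kept probes of Stat6 were averaged, its mean challenge response was -0.25, so that its direction depends on the probe. The difference between probes was not tested.

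**Figure D3:**
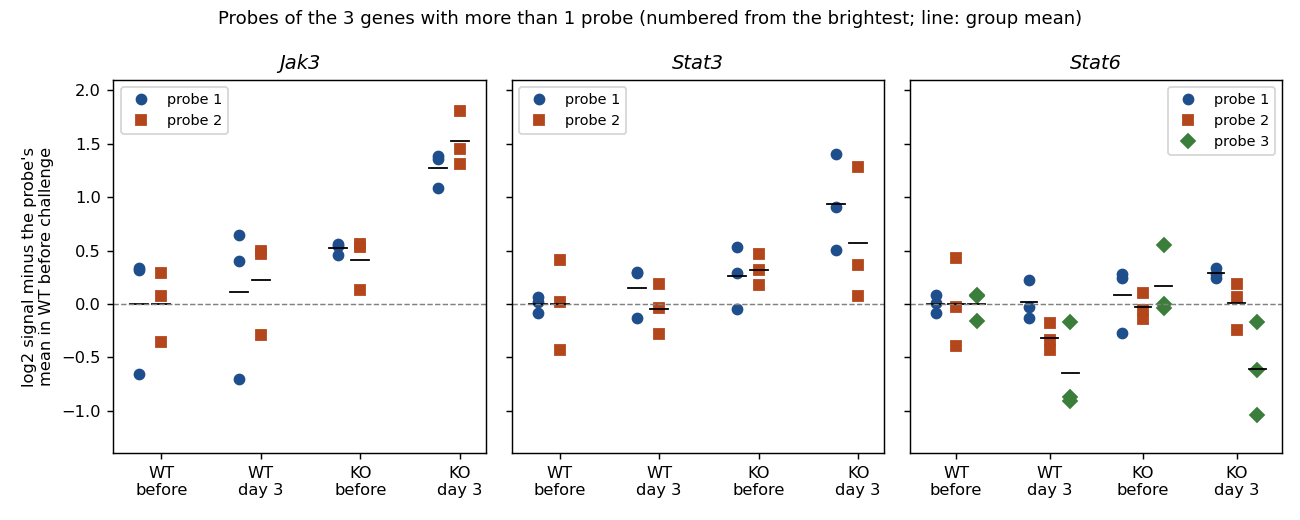
Log2 signal of each probe minus the mean of that probe in WT before challenge (vertical axis) for the 3 genes with more than 1 probe, in the 4 groups of 3 arrays. Points are arrays and horizontal lines group means. Both Jak3 probes are highest under the smSocs3-KO label at day 3, and the third Stat6 probe is lower at day 3 under both labels while the brightest is not.

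Ordered by group mean, 6 of the 9 genes had WT before challenge as the lowest group, and Jak2, Tyk2 and Stat5a had WT at day 3. Neighbours in this order mostly overlapped. The highest group, smSocs3-KO at day 3, lay apart from the next in Jak1, Jak3, Stat2 and Stat5a and overlapped with it in Jak2, Tyk2, Stat3, Stat4 and Stat6. Among the lower groups, only Stat4 showed a gap, between WT and smSocs3-KO before challenge.

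Because label and slide went together, the comparisons were refitted with the slide as a fixed block. The challenge response under the smSocs3-KO label then rests on the 5 arrays of slide 2, and it was 0.91 for Stat2 (adjusted p = 0.132), 0.82 for Stat3, 0.78 for Jak3, 0.50 for Stat5a, 0.46 for Stat4 and 0.32 for Jak1. Jak2, Tyk2 and Stat6 had responses of at most 0.15. The label difference at day 3 cannot be taken within a slide, and in this fit the slides were linked through replicate 1 of the smSocs3-KO label before challenge. It was 1.23 for Jak3, 1.20 for Stat3, 0.78 for Stat2, 0.61 for Tyk2 and 0.25 for Stat5a, and turned to -0.19 for Jak1 and -0.27 for Stat6. On slide 1 that array was below all 3 WT arrays before challenge for Jak1, Stat5a and Stat6 and above them for Jak3, Stat3 and Stat4. With the slide as a fixed block, 0 of the 9 and 0 of all genes passed at day 3 in limma. Stat3 alone of the 9 had an unadjusted p under 0.05 (0.0169), as had 3657 of all 22769 genes. With the slide as a random block 0 of the 9 and 1 of all genes passed. The unadjusted p was then under 0.05 for Stat3 (0.0130), Stat2 (0.0175) and Jak3 (0.0335), and for 1740 of all 22769 genes. The mean challenge response with the fixed block was 0.58 for Stat2 (adjusted p = 0.0344), 0.56 for Stat4 (adjusted p = 0.0390) and 0.32 for Jak1 (adjusted p = 0.0569).

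**Figure D4:**
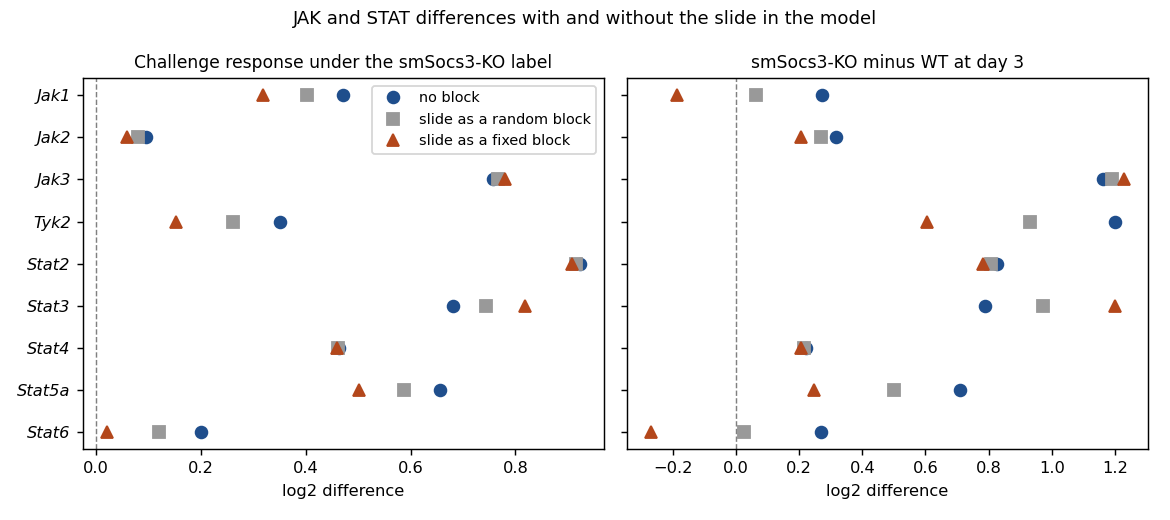
Log2 difference (horizontal axes) of the 9 genes in the challenge response under the smSocs3-KO label and between the labels at day 3, fitted without a block, with the slide as a random block and with the slide as a fixed block. All challenge responses stay at or above 0.02, whereas Jak1 and Stat6 turn from 0.27 to -0.19 and -0.27 between the labels at day 3.

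Several lists of cell type markers differed between the groups as well. The smooth muscle markers were all measured and high, with 8 of 8 genes and a summed level, relative to the 75th percentile of the array on a linear scale, of 2391 to 2668 (WT) and 2109 to 3214 (smSocs3-KO label) before challenge and 1830 to 2355 (WT) and 1484 to 1770 (smSocs3-KO label) at day 3. The pan-leukocyte markers, with 5 of 5 genes measured, summed to 5.90 to 7.85 (WT) and 8.19 to 11.8 (smSocs3-KO label) before challenge and to 6.61 to 29.6 (WT) and 25.9 to 47.8 (smSocs3-KO label) at day 3. Replicate 4 of WT at day 3, at 6.61, was the array of its group with the lowest Jak1, Jak3, Stat2, Stat3 and Stat4 signals. It had the highest Jak2, Tyk2 and Stat6 signals of the group. Neutrophil sums (6 of 8 measured) were 270 to 350 (WT) and 169 to 376 (smSocs3-KO label) before challenge. At day 3 they were 197 to 343 and 171 to 201. The value of 376 was that of replicate 1 on slide 1, and the smSocs3-KO arrays of slide 2 before challenge had 169 and 176. Median sums of B lymphocyte markers (4 of 5 measured) fell from 3.27 to 2.21 in WT and from 2.72 to 1.76 under the smSocs3-KO label. Their ranges overlapped between the times, with 2.79 to 3.35 and 1.78 to 3.45 in WT. Under the smSocs3-KO label they were 2.56 to 4.02 and 1.70 to 2.58. The median sums of thymocyte markers (2 of 4 measured) fell from 0.85 to 0.14 and from 0.82 to 0.08. Before challenge these sums spanned 0.27 to 1.60 in WT and 0.15 to 1.03 under the smSocs3-KO label. Rag1, among the 2 measured, was well above background on 0 arrays at day 3. Of the T and NK lymphocyte markers, 10 of 14 were measured, and Cd8a, Ncr1, Klrb1c and Gzmb were not above the filter. Their sum of 25.7 to 45.4 under the smSocs3-KO label at day 3, against 14.2 to 16.9 before challenge, was dominated by Thy1, which other cells express as well, and Thy1 was the only one of the 10 to pass under this label, at 1.69. In WT the median sum rose as well, from 15.5 before challenge to 31.3 at day 3. The WT ranges overlapped, with sums of up to 21.3 before challenge and of 19.6 to 42.6 at day 3. Of the defining T lymphocyte genes, Cd3d (-2.54) and Cd3g (-1.99) fell in WT, and Cd3e had a response of 0.02 in WT and -0.29 under the smSocs3-KO label. Cd3d and Cd3g were each well above background on only 1 of the 3 WT arrays at day 3. Their falls in WT and their label differences at day 3 therefore rest on values near the floor. Between the labels at day 3, none of the 10 passed, with 1.81 for Cd3d, 0.86 for Cd3g, 0.81 for Lck and -0.40 for Cd3e. Of the macrophage and monocyte markers 10 of 11 were measured, with overlapping sums of 158 to 264 in WT and 192 to 222 under the smSocs3-KO label at day 3. Before challenge the sums were 181 to 225 in WT and 140 to 312 under the smSocs3-KO label, and each range overlapped with that of day 3. In each label the overlap came from 1 array, replicate 4 of WT at day 3 (158) and replicate 1 of the smSocs3-KO label before challenge (312, slide 1). The other WT arrays at day 3 had 239 and 264. On slide 2 the smSocs3-KO sums were 140 and 151 before challenge and 192 to 222 at day 3. Single markers rose under the smSocs3-KO label, namely C1qa (1.91), C1qc (1.26), Cd14 (1.63) and Cd68 (2.12). Values of the remaining markers are not given. The mesothelial markers, all 7 measured, were higher under the smSocs3-KO label at both times, with sums of 3.75 to 21.6 (WT) and 35.9 to 74.6 (smSocs3-KO label) before challenge and 2.89 to 14.2 (WT) and 37.9 to 69.4 (smSocs3-KO label) at day 3. The part of these cells in the JAK and STAT values was not tested.

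Over the 12 arrays, the 36 pairs of the 9 genes had a median Pearson r of 0.56 (range -0.16 to 0.83), and 7 pairs were above 0.7, among them Jak1 with Stat4 (0.83), Jak3 with Stat3 (0.82) and Jak3 with Stat2 (0.82). Jak2 had the lowest values, -0.16 with Stat4 and 0.01 with Jak3, and 0.51 with Stat6 and 0.43 with Tyk2. The pairs share arrays, slides and groups. After the group means were removed, the median r was 0.07 and the range -0.72 to 0.58, with 0.51 for Jak1 and Stat4, 0.51 for Jak3 and Stat3 and 0.57 for Jak3 and Stat2.

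Up to 3 tested genes with the most similar profile were named for each gene by Pearson r over the 12 arrays. For Stat2 they were Trim30a (0.97), a probe without a gene name (0.96) and the interferon-induced Isg15 (0.96). For Jak1 they included Ifnar1 (0.97), a chain of the type I interferon receptor to which Tyk2 binds, and Trim30d (0.97). For Tyk2 they were Tap2 (0.95), a peptide transporter of antigen presentation, D10Jhu81e (0.95) and Trf (0.95), the iron carrier transferrin.

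For Jak3 the most similar were LOC100046632 (0.97), Psd4 (0.95) and Plac8 (0.91). For Stat4 they were Rab38 (0.98), Bcl2a1d (0.97) and Fgd3 (0.96), of which Bcl2a1d belongs to the Bcl2 family of cell survival genes. For Stat3 they were Sgta (0.96), Camkk2 (0.96) and Rgs16 (0.94). For Stat5a they were Gprc5b (0.92), St3gal1 (0.90) and Gm20117 (0.89), for Stat6 Dgka (0.93), Ampd3 (0.92) and Stk11ip (0.92), and for Jak2 an unnamed transcript (0.90), Hectd3 (0.88) and Inpp5k (0.88). With 22769 candidates and 12 arrays, high values are met by sheer number, and they are given as a description.

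The other genes of the pathway were counted from lists of ligands, receptors, regulators and targets. Over all genes, 22.9% were called in the mean challenge response, 4.69% in WT, 2.41% under the smSocs3-KO label and 1.08% between the labels at day 3. Without replicate 4 of WT at day 3, 3662 of 22769 genes were called in WT and 1944 under the smSocs3-KO label. The same setting called 6541 in the mean challenge response and 604 between the labels at day 3. With the slide as a fixed block these counts were 2297, 50, 4119 and 0. Counts in the lists are to be read against those of all genes in the same setting. Of 28 cytokine ligands, 11 were measured. Il6 was not well above background on any WT array before challenge, and rose at least 42.8-fold by day 3 in WT (adjusted p = 0.0359), a bound that was 17.4-fold without replicate 3, 23.6-fold without replicate 1 and 191-fold without replicate 4 of WT at day 3. Under the smSocs3-KO label Il6 was well above background on all 3 arrays before challenge, at least 5.95-fold above WT, a difference that did not pass. The Il6 response under this label was 3.91 (adjusted p = 0.162 in limma). In the mean challenge response 3 of the 11 rose and none fell, namely Il6, Il11 (1.95) and Cntf (0.57), a share near that of all genes. The Il11 signal was -3.41 on replicate 4 of WT at day 3, against -1.02 and -0.22 on the other WT arrays at day 3 and -3.40 to -2.78 in WT before challenge. Lif had responses of -0.20 and -0.58 in the 2 labels, neither of which passed. Interferon gamma, interleukin-4, interleukin-12 and oncostatin M were among the 17 ligands below the filter.

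Of the receptors that bind JAKs, 34 of 35 were measured. In the mean challenge response 15 rose and 2 fell, against 22.9% of all genes called in either direction. The largest rises were those of Il4ra (2.45), the chain shared by the receptors of interleukin-4 and interleukin-13, Csf2rb (1.82), the common beta chain of the interleukin-3 family, Il3ra (1.76) and Il21r (1.68). Before challenge Il21r was well above background on only 1 WT array and 2 smSocs3-KO arrays, so that its rise is in part against values near the floor. Il11ra1 (-0.49) and Prlr (-0.92), the receptors of interleukin-11 and prolactin, fell. Under the smSocs3-KO label alone 7 rose, among them Il4ra by 3.27, Csf2rb by 2.53, Il3ra by 2.43 and Il21r by 2.27, and with the slide as a fixed block 2 rose. Il6st, the chain that all receptors of the interleukin-6 family share, had a response of -0.21 in WT and 0.59 under the smSocs3-KO label, and neither passed, while Osmr, the oncostatin M receptor, rose by 1.28 under the smSocs3-KO label (adjusted p = 0.0394). At day 3 Il3ra (1.90) and Il6ra (1.13) were higher under the smSocs3-KO label than in WT and Il12rb2 (-1.06) was lower. With the slide as a fixed block 0 receptors passed at day 3, and without replicate 4 of WT at day 3 there were 3 higher and 0 lower.

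Of the negative regulators 20 of 21 were measured, and in the mean challenge response Socs3 (1.75), the phosphatases Ptpn6 (1.12) and Ptprc (1.07) and Pias2 (0.38) rose and Pias1 (-0.45) fell, a share near that of all genes. Ptprc is also one of the pan-leukocyte markers. Of the 10 STAT partners and other STATs, Stam (-0.50) fell and none rose. Irf9 had a label difference at day 3 of 0.80 (adjusted p = 0.150).

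Of 21 Stat3 target genes, all measured, 15 rose and none fell in the mean challenge response, with a median of 1.23 over the list and -0.08 over all genes. The largest rises were those of Timp1 (3.30), an inhibitor of matrix metalloproteinases, Birc5 (3.28), an inhibitor of cell death that acts in mitosis, and the acute phase genes Hp (2.65) and Lrg1 (2.48). In WT 2 of the 21 rose, Birc5 by 4.06 and Timp1 by 3.43. Under the smSocs3-KO label 8 rose, among them Hp by 3.59, Lrg1 by 3.52, Il4ra by 3.27 and Timp1 by 3.17. At day 3, Saa3 (8.80), Lcn2 (3.96), Lrg1 (3.29) and Cebpb (1.26) were higher under the smSocs3-KO label than in WT. Saa3 was well above background on 0 WT arrays before challenge and on 2 at day 3, so that its difference is taken against values near the floor. Under the smSocs3-KO label Saa3 was well above background on all 3 arrays before challenge. It was then already at least 48.2-fold above WT, which did not pass (adjusted p = 0.501 in limma). Saa3, Lcn2 and Lrg1 are acute phase genes and Cebpb is a transcription factor of that response. With the slide as a fixed block, 0 of the 21 passed at day 3 and 0 under the smSocs3-KO label, while 15 rose in the mean challenge response. Without replicate 4 of WT at day 3, 8 rose in WT, 11 under the smSocs3-KO label and 18 in the mean. The calls over all genes rose in this setting too, to 3662, 1944 and 6541 of 22769.

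Of 18 interferon targets of Stat2 with Irf9, all measured, 9 rose in the mean challenge response, with a median of 1.28. The largest rises were those of the antiviral genes Mx1 (2.61), Rsad2 (2.38) and Oasl1 (2.27) and of Isg15 (1.97), a protein modifier. Before challenge Mx1 was well above background on only 1 WT array and 2 smSocs3-KO arrays. Its rise is therefore taken in part against values near the floor. In limma 0 of the 18 passed the adjusted threshold in either response alone, and 12 were higher at an unadjusted p under 0.05 under the smSocs3-KO label (11.4% of all genes) and 4 in WT (15.1%). Without replicate 4 of WT at day 3, 7 rose under the smSocs3-KO label and 5 in WT, where 1944 and 3662 of all 22769 genes were called. With the slide as a fixed block 4 rose in the mean challenge response. That share is near that of all genes, of which 4119 of 22769 were called.

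For the other STATs the lists were short. Over all genes, 4.69% were called in WT and 2.41% under the smSocs3-KO label. The shares were 1.08% between the labels at day 3 and 22.9% in the mean challenge response. Of the 9 measured Stat6 targets, Chi3l3 (5.95), Il4ra (3.27) and Mrc1 (1.65), genes of alternatively activated macrophages, rose under the smSocs3-KO label, and in the mean challenge response the chemokine Ccl17 rose as well, which was not well above background on any array under the smSocs3-KO label before challenge. With the slide as a fixed block, 1 rose under the smSocs3-KO label and 4 in the mean challenge response. Of the 7 measured Stat5 targets Igf1, a growth factor, rose in WT (2.20). Igf1 (1.87) and Ccnd1 (0.87), a cyclin, rose in the mean challenge response, a share near that of all genes. Of the 4 measured Stat4 targets Il18r1 (3.14), a receptor of interleukin-18, was higher at day 3 under the smSocs3-KO label than in WT and Il12rb2 (-1.06) was lower. None of the 4 passed with the slide as a fixed block, and without replicate 4 of WT at day 3 there was 1 higher and 0 lower.

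**Figure D5:**
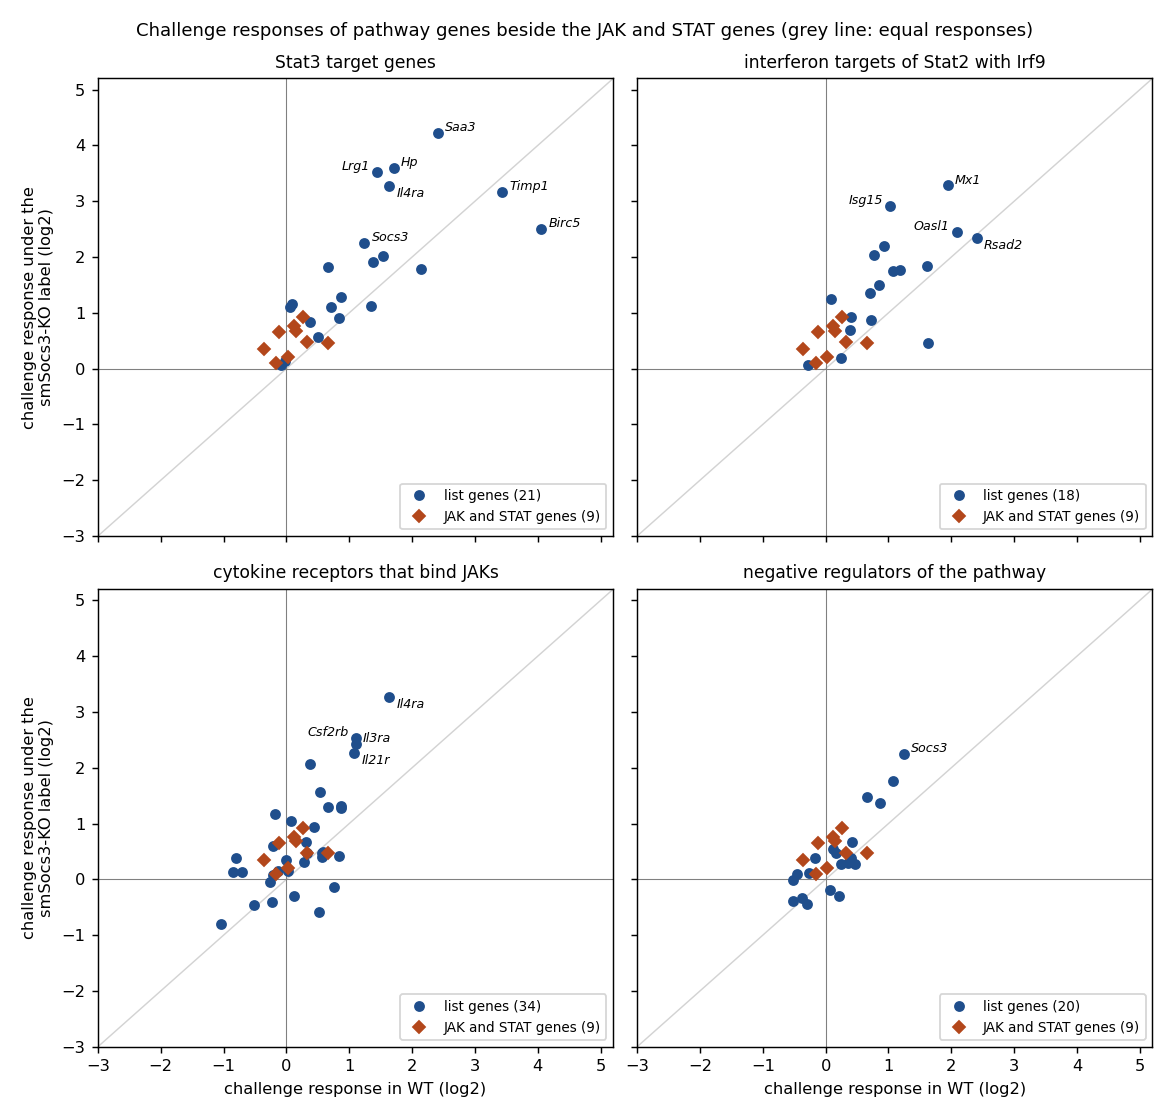
Challenge response in WT (horizontal axes) and under the smSocs3-KO label (vertical axes), as log2 differences of group means of 3 arrays each, for the genes of 4 pathway lists (circles) beside the 9 JAK and STAT genes (diamonds). Genes with large responses are named, and the grey line marks equal responses. The 9 JAK and STAT genes lie between -0.35 and 0.92, close to the origin, while Birc5 reaches 4.06 in WT and Saa3 4.23 under the smSocs3-KO label.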

How the data were processed

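Total aortic RNA was labelled with Cy3 and hybridised by the authors to Agilent one-colour arrays, 3 in each of 4 groups. They deposited the scanner output, in which the processed signal is a background-subtracted intensity per spot on a linear scale, from Feature Extraction (10.7.1.1 per the file headers, 9.5.1.1 per the labels). They also deposited a table of quantile-normalized intensity values, used here as an alternative. The scanner software marks a spot as well above background at 13 background SDs.

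From these files, control spots and outlier spots were removed, signals were log2 transformed, replicate spots averaged and each array scaled by subtracting its 75th percentile, taken over spots other than controls. The filter required the mark on all 3 arrays of some group (32291 of 55681 probes passed), and the brightest probe stood for a gene. Group means were fitted to all 12 arrays with limma 3.58.1 in R 4.3.3, with Benjamini-Hochberg adjustment over 22769 genes, and the script was tested on simulated data. The arrays carry no read counts, and their number limits the precision.

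The named genes were the 9 JAK and STAT genes with every probe, Socs3, Il6, Il6st, Osmr, Il11, Lif, Irf9 and Stat5b, in each pathway list up to 4 genes per direction with the largest change past the threshold, and per JAK or STAT gene the 3 most similar genes. Some items that these rules would name are not reported here. The JAK and STAT genes and all lists were chosen with earlier results of these data known. A gene not well above background on any array of a group has only a bound there: the fold was taken against the mean, per array, of the higher of its own signal and the lowest signal among probes well above background. Settings for background, scaling, filter, probe, moderation, slide, replicate number and single arrays were varied. The percentile over probes, the slide block without replicate 4 of WT at day 3, the list counts under 2 settings, the Il6 bound without single arrays and the other probes of Jak3, Stat3 and Stat6 were chosen after seeing the data. Positions are on mm9, and exons were not assigned. Same-numbered arrays of different groups had correlations of their deviations from the group means between -0.40 and 0.46, and the numbers were not taken to pair the arrays.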

Additional observations from a re-analysis of the deposited data

How the results depend on the processing

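None of the differences of the 9 genes that passed the adjusted threshold changed direction in any alternative. In the challenge response under the smSocs3-KO label, where 1 of the 9 genes was called, 0 were called without the filter on dim probes, with only the 2 groups compared, with quantile normalization, with the deposited value table, with the replicate block and with the slide as a fixed or random block, and 2 with normexp and quantile normalization. Leaving out single arrays gave 0 to 1, with 1 only without replicate 4 of WT at day 3. In the WT response, with 0 called, 1 was called after scaling to the array median, quantile normalization or in the value table, 2 with the slide block without replicate 4 of WT at day 3, and 0 to 1 without single arrays (1, Stat4, without replicate 4 of WT at day 3). At day 3 between the labels, with 0 called, 1 was called with normexp, alone or with quantile normalization, and 0 to 1 without single arrays (1, Tyk2, without replicate 4 under the smSocs3-KO label before challenge). In the mean challenge response, with 3 called, 5 were called with the slide block without replicate 4 of WT at day 3, and 0 to 4 without single arrays (0 without replicate 1 and 4 without replicate 4 of WT at day 3, and 1 without replicate 1 or replicate 2 of WT before challenge). The replicate block, in which the numbers would pair the arrays, called 0 there.

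Over all genes, the number called ranged from 0 to 5001 in the WT response (1068 as reported), from 1 to 1944 in that under the smSocs3-KO label (548), from 0 to 604 between the labels at day 3 (247) and from 863 to 6705 in the mean challenge response (5213). Scaling to the array median moved the median of all genes from -0.04 to 0.17 in the WT response and from -0.11 to 0.15 under the smSocs3-KO label, and turned the WT responses of Jak2 and Stat5a, which were not called, to 0.05 and 0.09. With 3 arrays a group, the SEs of the pairwise differences of the 9 genes were 0.17 to 0.35, which limits what could be detected.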
